A study of Mus musculus with 6 samples.

Results

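The 10 genes described here encode peroxide-detoxifying enzymes and enzymes whose genes are known targets of the transcription factor NRF2. They are the glutathione peroxidase genes Gpx1, Gpx2, Gpx3 and Gpx4, the peroxiredoxin genes Prdx1 and Prdx6, and Nqo1, Txnrd1, Gclc and Srxn1. They were taken by symbol, and all 10 were found among the 21878 gene rows of the table. The samples were 6 small intestine tumors of mice of the genotype Prkcif/fPrkczf/f;Villin-Cre, which is shared by both groups, so controls also carry the targeted atypical protein kinase C genes Prkci and Prkcz. Vehicle (replicates 1 to 3) or PEGPH20 (replicates 4 to 6), a pegylated hyaluronidase that breaks down the matrix polymer hyaluronan, was given from 11 weeks of age. PEGPH20 was dosed at 0.0375 mg/kg, and both treatments were given 2 times a week for 3 weeks, with tumors labelled as 14 weeks old. Villin-Cre acts in the intestinal epithelium, so the stroma of these tumors is not targeted, and the labels do not say whether each tumor came from a separate mouse. Levels are 3' tag counts scaled to a library total of 1000000 (CPM).

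Glutathione peroxidases and peroxiredoxins reduce hydrogen peroxide and lipid peroxides, drawing their electrons from glutathione or thioredoxin. NRF2 is held in check by KEAP1, is released under oxidative or electrophilic stress, and binds antioxidant response elements near genes for glutathione synthesis, thioredoxin reduction and quinone reduction. In the intestine, Gpx2 is known as an epithelial enzyme of the crypts, whereas Gpx3 is a secreted peroxidase of plasma and the extracellular space, best known from the kidney.

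Libraries held 2075588 to 2832876 reads, and 3 reads, the limit a count of 0 allows, corresponded to 1.06 to 1.45 CPM. All 10 markers of intestinal and general epithelium, such as Epcam and Vil1, were measured. PEGPH20 replicate 5 stood apart. On the main axis of a principal component analysis, with 70.9% of the variance, this library was at 70.1, against -27.9 to 1.73 for the others. Summed enterocyte markers were at 19077 CPM in that library and at 3622 to 7666 CPM in the other 5, and summed Paneth cell markers were at 5177 against 383 to 961 CPM. Its mitochondrial mRNA share was 5.15%, against 3.34% to 3.99%. Each enzyme's difference is therefore given with and without it.

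None of the 9 members that could be tested passed the threshold between PEGPH20 and vehicle tumors. The test was limma on log2(CPM + 1), with Benjamini-Hochberg adjustment over 11389 genes and a threshold of 0.05, and it called 9 genes in all, or 0.079%. At an unadjusted p under 0.05 there was 1 member, Gpx3, beside 18.0% of all genes tested. edgeR's quasi-likelihood test on the recovered reads called 0 members and 0.0878% of all genes, and DESeq2 called 1 member, Gpx3, and 2.43% of all genes. Without PEGPH20 replicate 5, limma called Gpx3 and 2.98% of all genes. On simulated reads for the 11389 genes, limma recovered 19.4% of genes changed 2-fold and 89.4% of genes changed 4-fold. Differences of 2-fold or less were thus mostly missed even there. The simulated libraries varied independently, with the same dispersion in both groups and no library set apart as PEGPH20 replicate 5 was. The shares therefore need not hold for the real libraries.

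**Figure D1:**
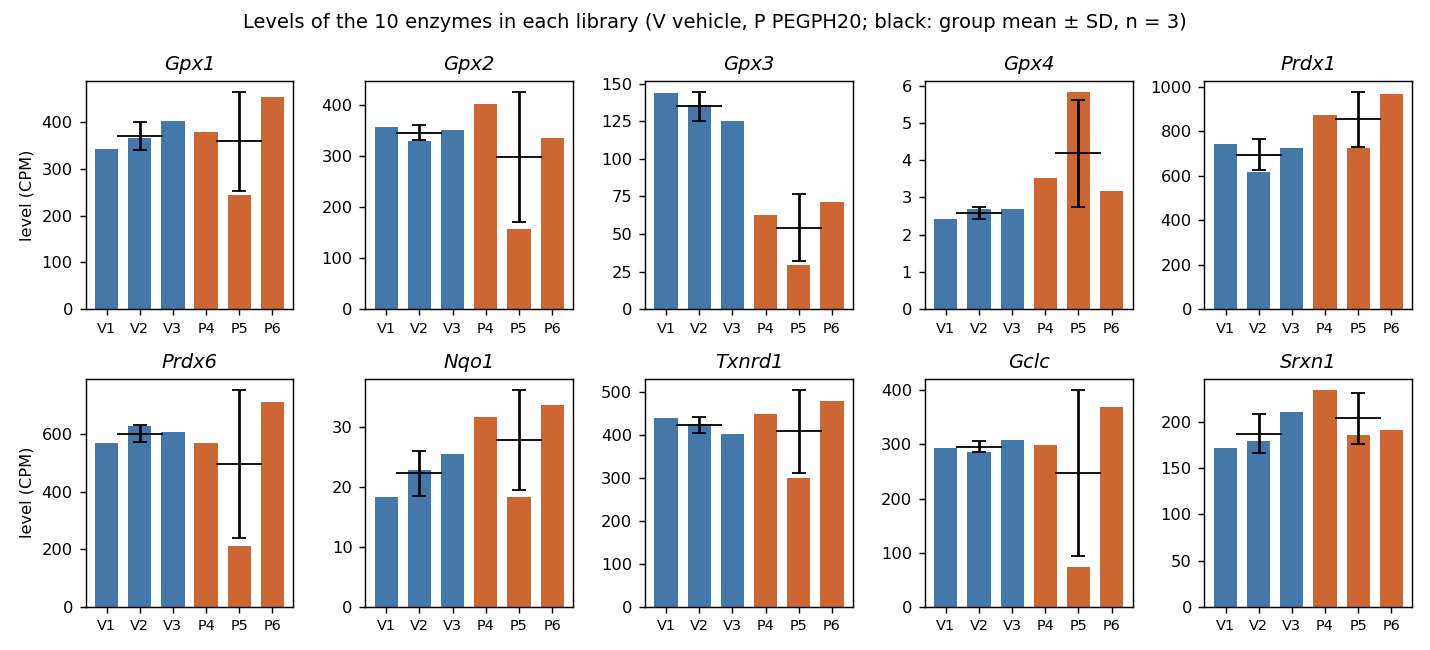
Level in CPM (vertical axes, from 0) of each of the 10 enzymes in the 3 vehicle libraries (blue, V1 to V3) and the 3 PEGPH20 libraries (orange, P4 to P6), with the group mean and SD in black. Gpx3 is lower in every PEGPH20 library (29.2 to 71.0 CPM) than in every vehicle library (125 to 144 CPM), and Gclc, Prdx6 and Gpx2 are low in P5.

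Gpx3, the gene of the secreted extracellular glutathione peroxidase, was the member with the lowest p. It lies on GRCm38 chromosome 11 from 54902453 to 54910377 on the plus strand (ENSMUSG00000018339). Its level was 144, 136 and 125 CPM in vehicle replicates 1, 2 and 3 and 62.8, 29.2 and 71.0 CPM in PEGPH20 replicates 4, 5 and 6. All PEGPH20 libraries were below all vehicle libraries, and it was the only one of the 9 tested members whose groups did not overlap, where 27.3% of all genes tested had groups that did not overlap. The means were 135 ± 9.57 and 54.3 ± 22.2 CPM (SD, n = 3 each), so the PEGPH20 mean was 40.2% of the vehicle mean. The log2 difference was -1.39 (SE 0.31, 95% interval -2.11 to -0.67), with a limma adjusted p of 0.143.

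The call on Gpx3 depended on 1 library and on the tool. Without PEGPH20 replicate 5 the log2 difference was -1.003 (limma adjusted p = 0.00294), and the remaining PEGPH20 libraries were at 46.5% and 52.6% of the vehicle mean. DESeq2 with all libraries gave -1.24 (adjusted p = 0.00644), and edgeR gave -1.25 (adjusted p = 0.114). In whole tumors, fewer cells that express a gene and less of its RNA per cell cannot be told apart.

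Fibroblast markers were lower in the same libraries as Gpx3. All 10 tested members of the 12 fibroblast markers had a negative log2 difference, with a median of -1.21 against -0.09 over all genes tested. In 8 of the 10 all PEGPH20 libraries lay below all vehicle libraries, as in 17.6% of all genes tested. With all libraries 0 passed limma (8 at an unadjusted p under 0.05). Without replicate 5 the median was -0.80 and 7 passed, beside 2.98% of all genes tested. Their summed level was 3163 to 3246 CPM in vehicle and 664 to 1734 CPM in PEGPH20 libraries. Mfap5 and Pi16, markers of adventitial fibroblasts, were too low to test. All 9 tested endothelial markers were also below 0 (median -0.90, summed levels of 318 to 342 and 126 to 201 CPM). The part of these cells in the Gpx3 difference was not tested.

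Gpx3 was also set against the summed level of each marker list. These ratios were chosen after the values were seen and carry no test, and a sum is led by its most abundant genes, for fibroblasts Col1a1, Col1a2, Col3a1 and Dcn. Per 1000 summed CPM of the 12 fibroblast markers it stood at 44.4, 43.0 and 39.2 CPM in the vehicle libraries and at 36.2, 43.9 and 47.4 CPM in PEGPH20 replicates 4, 5 and 6. Per 1000 summed CPM of endothelial markers it was at 393 to 421 in vehicle and 232 to 378 in PEGPH20 libraries. Over all 13 marker lists, Gpx3 set against the list overlapped between the groups for 4 (fibroblast, neutrophil, adipocyte, and erythroid and blood). For the other 9, among them epithelial, smooth muscle, endothelial and macrophage markers, it was lower in all PEGPH20 libraries. Gpx3 alone was already lower in all of them, so a list that differs little between the groups leaves the ratio lower. These counts therefore do not show which cells the Gpx3 difference came from. Summed neutrophil markers were at 87.6 to 225 CPM in vehicle and 11.3 to 77.7 CPM in PEGPH20 libraries, and adipocyte markers at 47.7 to 61.9 and 30.5 to 47.7 CPM. Epithelial markers had a median log2 difference of -0.14, with summed levels of 8348 to 9463 CPM in vehicle and 6054 to 8425 CPM in PEGPH20 libraries.

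**Figure D2:**
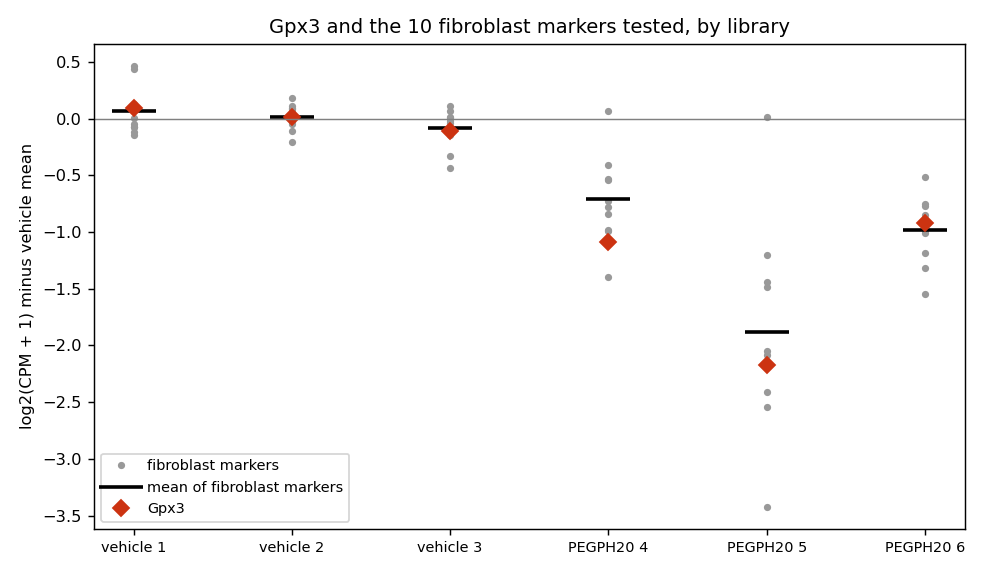
Deviation of Gpx3 (red diamonds) and of the 10 tested fibroblast markers (grey points, mean as a black bar) from their own vehicle means, on the log2(CPM + 1) scale, in each of the 6 libraries. Gpx3 is at -1.09, -2.17 and -0.92 in PEGPH20 replicates 4, 5 and 6, where the marker mean is at -0.71, -1.88 and -0.98.

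The genes with the pattern most like that of Gpx3 were matrix or early response genes. Likeness was the root mean square difference of log2(CPM + 1) over the 6 libraries after centring each gene, among 8673 other genes with a mean of at least 10 CPM. The closest were Mfap4, a microfibril-associated protein (0.0594), Col3a1, a fibrillar collagen (0.0786), and Ier3, an immediate early response gene (0.0824). The median over the 8673 genes was 0.762. Col3a1 is also among the fibroblast markers above, so its likeness to Gpx3 is no separate observation. Col3a1 was at 546, 556 and 528 CPM in vehicle and 274, 127 and 270 CPM in PEGPH20 libraries. Ier3 was at 56.9, 47.4 and 47.8 CPM and then 26.1, 10.4 and 25.9 CPM. With 6 libraries and many genes, close matches of this kind describe these samples alone.

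The other glutathione peroxidase genes did not pass the test. Gpx1, the ubiquitous cytosolic enzyme (chromosome 9, 108338903 to 108340343, plus strand), was at 344, 366 and 403 CPM in vehicle and 379, 245 and 454 CPM in PEGPH20 replicates 4, 5 and 6. Replicate 5 was the lowest library and replicate 6 the highest, so the PEGPH20 values enclosed the vehicle values. The means were 371 ± 29.95 and 359 ± 106 CPM (SD, n = 3 each), with a log2 difference of -0.09 (95% interval -0.61 to 0.43, limma adjusted p = 0.848) whose sign was positive under TMM and RLE scaling. Without replicate 5 it was 0.16 (limma adjusted p = 0.501).

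Gpx2, the epithelial enzyme of the gut (chromosome 12, 76792333 to 76795554, minus strand), was at 356, 328 and 351 CPM in vehicle and 402, 156 and 335 CPM in PEGPH20 libraries. PEGPH20 replicate 5 was at 45.2% of the vehicle mean, while replicates 4 and 6 were at 117% and 97.2%. The log2 difference was -0.32 (95% interval -1.06 to 0.42, limma adjusted p = 0.606), and 0.09 without replicate 5 (adjusted p = 0.724). Epithelial and crypt markers went both ways in replicate 5. Crypt and stem cell markers summed to 505 CPM there and to 736 to 936 CPM in the other 5 libraries, with Sox9 (78.8 CPM) and Cd44 (74.6 CPM) low but Olfm4 (21.3 CPM) and Axin2 (35.8 CPM) higher than in any other library. The mean deviation of the 10 crypt markers from their vehicle means was -0.09 on the log2 scale in replicate 5, beside -0.08 in vehicle replicate 1. Epithelial markers summed to 6054 CPM against 8231 to 9463 CPM, with Krt8, Krt18, Krt19 and Cdh1 lower than in any other library and Vil1 and Krt20 higher. Their part in the low Gpx2 value of replicate 5 was not tested.

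Gpx4 (chromosome 10, 80047166 to 80056439, plus strand), which reduces lipid peroxides in membranes and is the enzyme that holds back ferroptosis, had only 50 reads over the 6 libraries. It had 5, 7 and 7 reads in vehicle and 10, 14 and 7 reads in PEGPH20 libraries, which is 2.41 to 2.68 and 3.19 to 5.83 CPM. It did not pass the filter on low counts, and in a fit with no filter its log2 difference was 0.50 (limma adjusted p = 0.577). The 3' end of Gpx4 is not unique, so this level is uncertain. Of the 271 distinct words of 75 bases, the read length, in the last 300 bases of its coding transcripts, 222 (81.9%) also occur in Gpx4-ps2. This is an annotated processed copy on the same chromosome 10, and it has no row among the 21878 gene rows. Whether reads shared by both were discarded was not tested. For Prdx1 17.9% of such words occur in the processed copies Gm21399 and Gm7204, and for the other 8 members 0 did.

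Promoter sequence was examined for the element that NRF2 is known to bind. Windows from 250 bases before to 50 bases after annotated starts, from RefSeq on GRCm38.p6, were at hand for 8 of the 10 members (13 windows), and not for Prdx6 and Gclc. They were searched on both strands for TGACNNNGC, the core of the antioxidant response element, and for its variant TGAGNNNGC, where N is any base, and a match of one form can overlap a match of the other on the opposite strand. Of all 32851 windows of this length 27.8% held either form, and of the 13 member windows 3 did, in Srxn1, Prdx1 and Txnrd1. The matches before the start are shown because only these 3 members carry the letters inside the window. Capitals mark the matched bases, read 5′ to 3′ on the gene's strand.

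Srxn1, chr2:152105453-152105513, plus strand, match from 45 bases before the start: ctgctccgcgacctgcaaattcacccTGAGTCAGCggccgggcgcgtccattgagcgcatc
Srxn1, chr2:152105340-152105400, plus strand, match on the opposite strand from 158 bases before the start: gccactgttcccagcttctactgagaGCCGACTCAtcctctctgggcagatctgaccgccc
Prdx1, chr4:116685440-116685500, plus strand, match on the opposite strand from 133 bases before the start: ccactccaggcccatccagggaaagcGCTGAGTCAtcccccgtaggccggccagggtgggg
Txnrd1, chr10:82859088-82859148, plus strand, match on the opposite strand from 92 bases before the start, in 1 of 3 annotated windows: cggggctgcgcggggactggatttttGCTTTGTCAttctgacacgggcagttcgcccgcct

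No match of these letters lies in the windows of Gpx1, Gpx2, Gpx3, Gpx4 and Nqo1, which says nothing of elements farther away.

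Neither peroxiredoxin gene passed the test. Prdx1, a thioredoxin-dependent peroxidase of the cytosol (chromosome 4, 116685544 to 116700822, plus strand), was at 744, 617 and 722 CPM in vehicle and 872, 723 and 966 CPM in PEGPH20 replicates 4, 5 and 6. PEGPH20 replicates 4 and 6 were above all vehicle libraries and replicate 5 lay between vehicle replicates 3 and 1. A match shown above is in its window. The means were 695 ± 67.8 and 854 ± 123 CPM (SD, n = 3 each). The log2 difference was 0.29 (95% interval -0.06 to 0.65, limma adjusted p = 0.345), and 0.41 without replicate 5 (adjusted p = 0.0897).

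Prdx6 reduces phospholipid peroxides with glutathione (chromosome 1, 161240112 to 161251219, minus strand). Its level was 570.4, 627 and 608 CPM in vehicle and 569.7, 212 and 712 CPM in PEGPH20 libraries. Replicate 5 was at 35.2% of the vehicle mean, and the other PEGPH20 libraries lay just below and above the vehicle range. The log2 difference was -0.45 (95% interval -1.38 to 0.49, limma adjusted p = 0.565), and 0.08 without replicate 5 (adjusted p = 0.766). Genes with a pattern most like that of Prdx6 were Stk38l, a kinase gene, Tmsb10, an actin-binding thymosin, and Aacs, an acetoacetyl-CoA synthetase, at root mean square differences of 0.0666 to 0.0906. Those most like Prdx1 were Tinf2, a telomere protein, Zwilch, a kinetochore protein, and Uggt1, which senses misfolded glycoproteins, at 0.0581 to 0.0677.

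Among the NRF2 target enzymes, Nqo1, a quinone reductase widely used as a readout of NRF2 (chromosome 8, 107388225 to 107403206, minus strand), was at 18.3, 22.9 and 25.6 CPM in vehicle and 31.8, 18.3 and 33.7 CPM in PEGPH20 replicates 4, 5 and 6. Replicates 4 and 6 were above every vehicle library, at 143% and 151% of the vehicle mean, and replicate 5 was level with the lowest vehicle library. The means were 22.3 ± 3.69 and 27.9 ± 8.36 CPM (SD, n = 3 each). The log2 difference was 0.28 (95% interval -0.33 to 0.89, limma adjusted p = 0.585), and 0.55 without replicate 5 (95% interval 0.12 to 0.97, adjusted p = 0.157). The values rest on 38 to 90 reads per library.

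Gclc, the catalytic subunit of the enzyme that makes the first intermediate of glutathione (chromosome 9, 77754535 to 77794485, plus strand), had the highest coefficient of variation of the 9 tested members among the PEGPH20 libraries, at 62.3%. It was at 294, 287 and 307 CPM in vehicle and 299, 74.2 and 369 CPM in PEGPH20 libraries. Replicate 5 was at 25.1% of the vehicle mean, while replicate 4 lay within the vehicle range and replicate 6 above it. Its log2 difference was -0.55 (95% interval -1.79 to 0.69, limma adjusted p = 0.593), and 0.17 without replicate 5 (adjusted p = 0.490).

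Txnrd1, the cytosolic thioredoxin reductase (chromosome 10, 82833951 to 82897712, plus strand), was at 438, 426 and 403 CPM in vehicle and 448, 298 and 478 CPM in PEGPH20 libraries. The reads of Txnrd1 may include some of Eid3, which it overlaps on the same strand. Its difference on the log2 scale was -0.08 (95% interval -0.51 to 0.36, limma adjusted p = 0.843), turned positive under TMM and RLE scaling, and was 0.13 without replicate 5 (adjusted p = 0.514). Srxn1, sulfiredoxin, which restores over-oxidized peroxiredoxins (chromosome 2, 152105516 to 152111376, plus strand), was at 172, 179 and 211 CPM in vehicle and 235, 185 and 191 CPM in PEGPH20 libraries. Both Srxn1 and Txnrd1 hold matches shown above. The Srxn1 groups overlapped, and it had the narrowest interval of the 9 members, with a log2 difference of 0.12 (95% interval -0.22 to 0.46, limma adjusted p = 0.680), and of 0.18 without replicate 5 (adjusted p = 0.505).

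**Figure D3:**
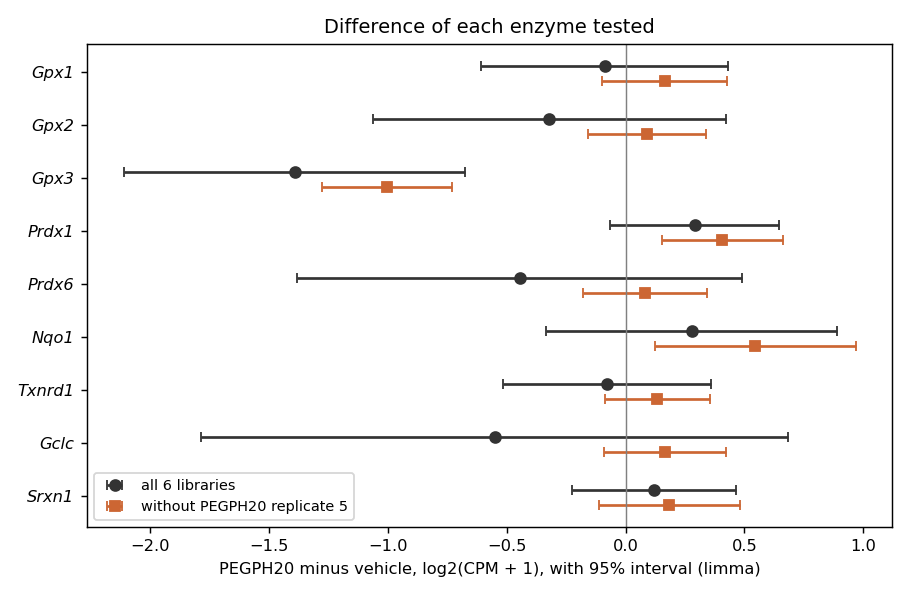
Difference of log2(CPM + 1) between the groups, positive where PEGPH20 is higher, with its 95% interval from limma for the 9 members tested, with all 6 libraries (black) and without PEGPH20 replicate 5 (orange). Only the interval of Gpx3 (-2.11 to -0.67) excludes 0 with all libraries, and those of Prdx1 and Nqo1 also do without replicate 5, where neither passed the adjusted threshold.

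The members differed from one another mainly in PEGPH20 replicate 5. It was the lowest library for 6 of the 9 tested members (Gpx1, Gpx2, Gpx3, Prdx6, Txnrd1 and Gclc), where it was the lowest for 45.3% of all genes tested. PEGPH20 replicate 6 was the highest library for 6 of the 9, where it was the highest for 11.2% of all genes tested. Prdx1 and Srxn1 were at 104% and 99.0% of the vehicle mean in replicate 5. Within vehicle tumors the median coefficient of variation was 7.09% for the members and 11.8% over 8682 genes with a mean of at least 10 CPM. Within PEGPH20 tumors the medians were 29.9% and 19.1%. The sets were not matched by level (vehicle means of the members were 22.3 to 695 CPM), and counting noise is larger at low levels. Over the 9 members the median log2 difference was -0.09, with 6 below 0 and 3 above. It was 0.16 without replicate 5, with 8 above 0, where the medians over all genes tested were -0.09 and -0.01.

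**Figure D4:**
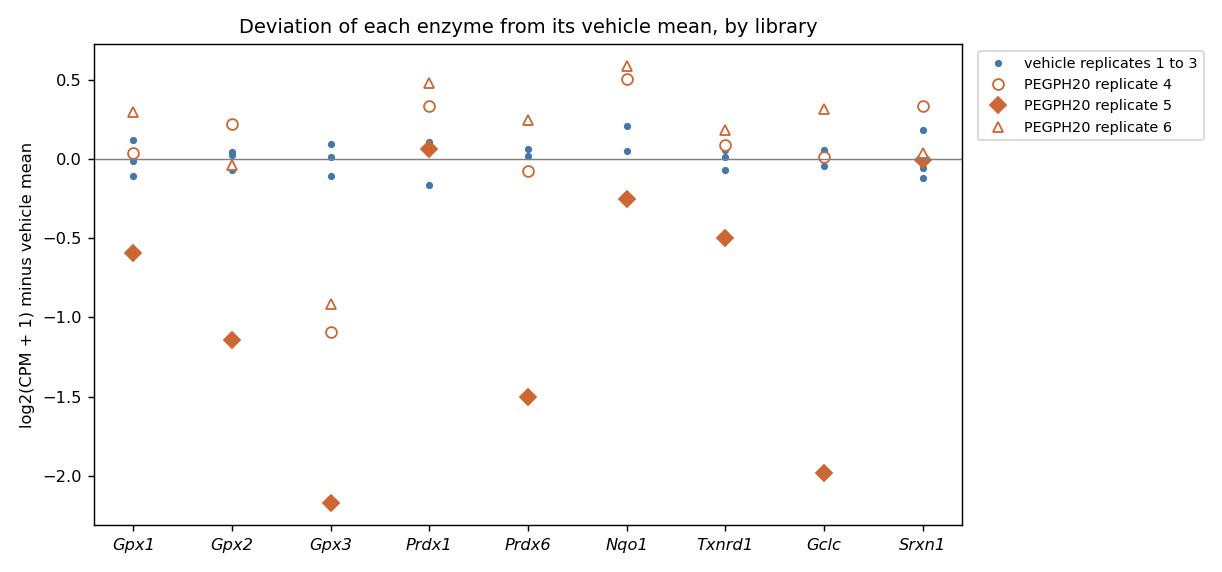
Deviation of each tested member from its own vehicle mean on the log2(CPM + 1) scale, for the 3 vehicle libraries (blue points) and PEGPH20 replicates 4 (open circles), 5 (filled diamonds) and 6 (open triangles). Replicate 5 lies at -1.98 for Gclc, -1.50 for Prdx6 and -1.14 for Gpx2, where replicates 4 and 6 lie between -0.08 and 0.32, and Gpx3 is below 0 in all 3.

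The rest of the pathway was followed in 9 lists with 127 further genes in the table, of which 115 were tested. With all libraries limma called 0 of them, where it called 0.079% of all genes tested. An unadjusted p under 0.05 was found for 25 (18.0% of all genes tested). edgeR called 0 and DESeq2 called 9, where they called 0.0878% and 2.43% of all genes tested. Without PEGPH20 replicate 5 limma called 10 higher and 5 lower, or 13.04%, where it called 2.98% of all genes tested. These lists were drawn up with earlier results of these data known, so their counts are no independent evidence.

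Other enzymes of peroxide and superoxide disposal had a median log2 difference of 0.07 over 9 tested genes, which was -0.0008 without replicate 5, and none was called by limma, edgeR or DESeq2. Catalase, Cat, which splits hydrogen peroxide in peroxisomes, had a mean level of 35.6 ± 5.14 CPM with vehicle and of 74.9 ± 44.5 CPM with PEGPH20 (SD, n = 3 each; limma adjusted p = 0.244), with 126 CPM in replicate 5 and 48.7 and 49.6 CPM in replicates 4 and 6. Sod3, the extracellular superoxide dismutase, was at 24.7 ± 3.97 and 11.7 ± 7.83 CPM (adjusted p = 0.272), and cytosolic Sod1 at 338 ± 21.4 and 387 ± 26.4 CPM (0.410). These 3 had the lowest p of the list, and in each the groups did not overlap, as in 27.3% of all genes tested. The log2 differences of Cat and Sod3 were 0.91 and -1.29, and 0.46 and -0.59 without replicate 5.

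In the thioredoxin and glutaredoxin system (11 tested, median 0.12, and 0.03 without replicate 5) the leading gene was Txnrd3, a thioredoxin-glutathione reductase. It was at 36.6, 38.2 and 34.8 CPM in vehicle and 21.9, 10.8 and 18.2 CPM in PEGPH20 libraries, with a log2 difference of -1.11 (limma adjusted p = 0.147). It fell without replicate 5 (-0.84, adjusted p = 0.0283) and by DESeq2 (adjusted p = 0.0343). The mitochondrial thioredoxin gene Txn2 was at 57.5 ± 6.54 and 76.0 ± 2.45 CPM (SD, n = 3 each; limma adjusted p = 0.204), and cytosolic Txn1 at 1959.8 ± 315 and 2538 ± 351 CPM (0.317).

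Glutathione synthesis and use (20 tested) had a median log2 difference of 0.19, and 0.41 without replicate 5, with 13 and then 16 genes above 0. Of all 11389 genes tested, 4578 and then 5473 were above 0. In 7 of the 20 all PEGPH20 libraries lay above all vehicle libraries, as in 9.71% of all genes tested. The glutathione S-transferase gene Gstm3 was at 6.26, 11.1 and 4.21 CPM in vehicle and 17.3, 75.4 and 33.2 CPM in PEGPH20 libraries (log2 difference 2.24, limma adjusted p = 0.147), and Gstm1 at 37.6, 24.9 and 24.5 and then 53.7, 40.0 and 67.4 CPM (0.86, 0.172). The microsomal transferase Mgst2 was at 108 ± 4.05 and 153 ± 15.3 CPM (SD, n = 3 each; 0.50, 0.157). Gstm3, Gstm1, Mgst3 and Gsto1 rose without replicate 5 (limma adjusted p = 0.0446, 0.0280, 0.0339 and 0.0337), the last 2 being named after their values were seen. That fit called 2.98% of all genes tested. DESeq2 with all libraries also called Gstm3 (adjusted p = 0.00174) and Gstm1 (adjusted p = 0.0490), and 2.43% of all genes tested. The mu class transferase genes are closely related copies, so their counts are uncertain where reads could be shared.

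Of the other NRF2 targets (23 tested, median -0.18, and 0.11 without replicate 5) values went both ways. Hmox1, heme oxygenase 1 and a classical NRF2 target, was at 28.9, 22.9 and 29.8 CPM in vehicle and 18.7, 2.92 and 11.8 CPM in PEGPH20 libraries (log2 difference -1.49, limma adjusted p = 0.219), and its difference was -0.82 without replicate 5 (adjusted p = 0.0895). Ftl1, the ferritin light chain, was at 47.4 ± 6.10 and 69.9 ± 15.3 CPM (SD, n = 3 each; 0.54, adjusted p = 0.231), and rose without replicate 5 (0.73, adjusted p = 0.0312). Ugdh, which makes UDP-glucuronate, was at 120.2 ± 10.9 and 181 ± 15.9 CPM (0.58, adjusted p = 0.146), and also rose without replicate 5 (0.61, 0.0309). DESeq2 with all libraries called Ugdh as well (adjusted p = 0.0411). Those fits called 2.98% and 2.43% of all genes tested.

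The list of NRF2 regulators, which also holds the NRF2 gene Nfe2l2 itself (12 tested, median -0.13), had 10 genes below 0. Of all 11389 genes tested, 6811 were (median -0.09). Nfe2l2, named after its values were seen, was at 248, 264 and 272 CPM in vehicle and 298, 277 and 370 CPM in PEGPH20 libraries. Its log2 difference was 0.26 (limma adjusted p = 0.361), and 0.35 without replicate 5. Its PEGPH20 libraries all lay above its vehicle libraries, as in 9.71% of all genes tested. Without replicate 5 there were 7 below 0, with a median of -0.02, beside 5916 of all genes tested (median -0.01). In neither fit was a gene of this list called. Keap1, the adaptor that directs NRF2 to degradation, was at 76.7 ± 5.47 and 61.2 ± 4.75 CPM (SD, n = 3 each; limma adjusted p = 0.269). The autophagy receptor Sqstm1 was at 206 ± 22.7 and 156 ± 35.1 CPM (0.295), and Bach1, a repressor at the same elements, at 80.3 ± 4.39 and 106 ± 27.7 CPM (0.344).

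Among enzymes that make superoxide or peroxide (13 tested, median 0.58, and 0.34 without replicate 5 or 0.21 without PEGPH20 replicate 4) 3 NADPH oxidase or amine oxidase genes led. Nox1, the NADPH oxidase of intestinal epithelium, was at 2.41, 5.73 and 5.35 CPM in vehicle and 25.8, 12.1 and 15.9 CPM in PEGPH20 libraries (log2 difference 1.78, limma adjusted p = 0.135). Nox4, a NADPH oxidase of mesenchymal cells, was at 6.75, 8.03 and 7.65 CPM and then 2.47, 0.417 and 0.910 CPM (-2.00, adjusted p = 0.121), the value of replicate 5 being that of 1 read. Aoc1, diamine oxidase, was at 29.4 ± 4.77 and 149.8 ± 131 CPM (SD, n = 3 each; 1.97, adjusted p = 0.160), with 301 CPM in replicate 5. All 3 passed without replicate 5, Nox1 at 2.02 (limma adjusted p = 0.0171), Nox4 at -1.72 (0.0329) and Aoc1 at 1.30 (0.00836), and by DESeq2. Those fits called 2.98% and 2.43% of all genes tested. The 3 were named for the lowest p of the list in the same libraries, so their passing is no independent evidence. Duox2 and its maturation factor Duoxa2, named after their values were seen, overlapped between the groups with all libraries and rose without replicate 5 (1.05 and 1.59, limma adjusted p = 0.0155 and 0.0443).

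**Figure D5:**
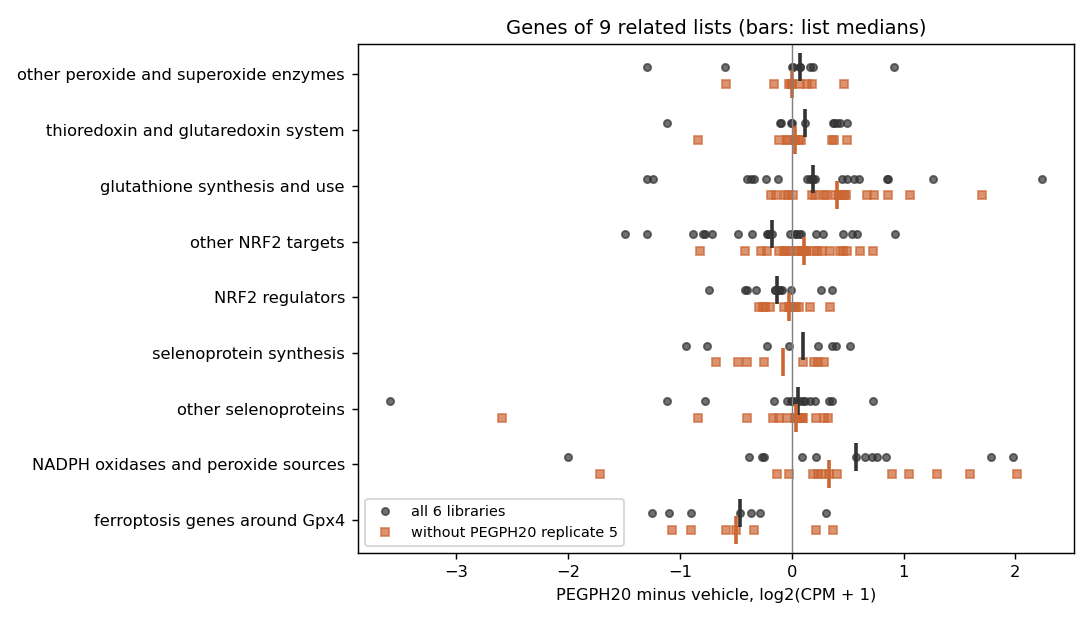
Difference of log2(CPM + 1) between the groups, positive where PEGPH20 is higher, for each tested gene of the 9 related lists, with all 6 libraries (black circles) and without PEGPH20 replicate 5 (orange squares), and list medians as vertical bars. The medians lie between -0.46 and 0.58 with all libraries, and the farthest single gene is Dio2 at -3.59.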

How the data were processed

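Gene expression was measured by QuantSeq forward 3' mRNA sequencing of 200 ng total RNA, with 75 nt single-end reads, per the labels' protocols. The authors deposited a signal in CPM, gene reads divided by the library's total and scaled to 1000000, on genome build GRCm38 per the submitters' processing notes. The sources used here do not give the aligner, counter or annotation, nor say if molecular identifiers were used. A row of totals was dropped. All values (100%, tolerance 1e-06) were whole multiples of 1 read, which gave back the reads. Symbols and positions came from GENCODE M21 for 21786 of 21878 identifiers.

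Tests on log2(CPM + 1) used limma 3.58.1 (trend in the prior variance) for 11389 genes kept by filterByExpr (minimum count 10), 3 libraries per group. The pseudocount of 1 understates changes of low genes, and p-values cover only the spread between these libraries, which may be technical. The alternatives were edgeR 4.0.16, DESeq2 1.42.0, limma-voom, TMM and RLE scaling, other pseudocounts and filters, and leaving out each library. The fit was tested on simulated data. Members and lists were chosen with earlier results of these data known. Named genes are all members, the 3 lowest p-values per list, and the 3 nearest patterns of the 3 members with the lowest p; exceptions are marked. The software also included R 4.3.3 and Python 3.11.15.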

Additional observations from a re-analysis of the deposited data

How the results depend on the processing

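The count of genes past the threshold was 9. It was 29 with no filter, 18 with limma-voom and 277 with DESeq2, and 1 to 339 when leaving out 1 library, the highest without PEGPH20 replicate 5; the cause was not tested. The count of members past it was 0. It was 1 with DESeq2 and 0 to 1 when leaving out 1 library, in each case Gpx3. Gpx3 was below 0 under all 15 alternatives, from -1.63 to -1.003, with adjusted p from 0.00294 to 0.421. Of 135 member values 15 turned positive. Gpx1 and Txnrd1, at -0.09 and -0.08, were at 0.0019 and 0.013 with TMM, 0.016 and 0.027 with RLE, 0.029 and 0.027 with edgeR, 0.042 and 0.039 with DESeq2, and 0.0018 and 0.014 with limma-voom. Leaving out 1 library gave -0.28 to 0.16 for Gpx1, -0.59 to 0.0904 for Gpx2, -0.79 to 0.0826 for Prdx6, -0.21 to 0.13 for Txnrd1 and -0.98 to 0.17 for Gclc, positive without PEGPH20 replicate 5 in all 5. None of these had passed. Among members, list medians changed sign without PEGPH20 replicate 5 for glutathione peroxidases (-0.32 to 0.09) and peroxiredoxins (-0.08 to 0.24; 0.01 to 0.09 with TMM, RLE, edgeR, DESeq2 and limma-voom), and without PEGPH20 replicate 4 or 6 for NRF2 target enzymes (0.02 to -0.07 and -0.04). Among other lists they did so without replicate 5 for other NRF2 targets (-0.18 to 0.11; 0.07 with edgeR, 0.08 with DESeq2), selenoprotein synthesis (0.11 to -0.08), other peroxide and superoxide enzymes (0.07 to -0.0008), crypt markers (-0.11 to 0.11; 0.02 with edgeR, 0.04 with DESeq2) and macrophage markers (-0.10 to 0.07), without PEGPH20 replicate 4 for goblet markers (0.07 to -0.12), and without vehicle replicate 2 for the thioredoxin system (0.12 to -0.00035). Depth limits Gpx4 and Nqo1 most. No paired analysis was possible because the labels share no replicate number between the groups.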

Other observations

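Selenium supply and lipid peroxidation genes surround the glutathione peroxidases, which along with Txnrd1 are selenoproteins. Genes for selenoprotein synthesis (8 tested) had a median log2 difference of 0.11, and -0.08 without PEGPH20 replicate 5, and none was called in either fit. Its leading genes were Eefsec, the elongation factor for selenocysteine, at 6.45 ± 1.61 and 3.36 ± 0.39 CPM (SD, n = 3 each; limma adjusted p = 0.219), and the selenoprotein P receptor Lrp8, at 23.6 ± 2.08 and 13.4 ± 7.52 CPM (0.299). Sepsecs was at 26.9 ± 3.34 and 40.8 ± 15.9 CPM (0.333). Of 16 other selenoprotein genes tested 0 were called by limma, and 3 had an unadjusted p under 0.05, as did 18.0% of all genes tested. DESeq2 called 1, Txnrd3, and 2.43% of all genes tested. Dio2, which activates thyroid hormone, was at 185, 46.6 and 75.3 CPM in vehicle and 26.1, 0.834 and 6.83 CPM in PEGPH20 libraries (log2 difference -3.59, adjusted p = 0.157), and fell without replicate 5 (-2.59, adjusted p = 0.0403). Selenot was at 77.7 ± 8.84 and 97.8 ± 3.84 CPM (limma adjusted p = 0.261).

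Of 7 tested genes that set sensitivity to ferroptosis, 6 were below 0, as were 6811 of all 11389 genes tested. Without PEGPH20 replicate 5 there were 5 below 0, and 5916 of all genes tested. Tfrc, the transferrin receptor, was at 360.4, 364 and 396 CPM in vehicle and 154, 168 and 203 CPM in PEGPH20 libraries (log2 difference -1.10, limma adjusted p = 0.0722), and passed without replicate 5 (0.00294), by DESeq2 (0.000804) and with no filter (0.0272). Acsl4, which loads polyunsaturated fatty acids into lipids, was at 59.7, 52.8 and 72.2 CPM and then 39.5, 15.0 and 26.4 CPM (-1.25, limma adjusted p = 0.157), and fell without replicate 5 (-0.90, adjusted p = 0.0429) and by DESeq2 (0.0360). The fits without replicate 5, by DESeq2 and with no filter called 2.98%, 2.43% and 0.133% of the genes they tested. Tfrc and Acsl4 were named for the lowest p of the list in the same libraries, so their passing is no independent evidence. Lpcat3 was at 162 ± 8.27 and 201 ± 20.6 CPM (SD, n = 3 each; limma adjusted p = 0.268).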
